A study of Drosophila melanogaster with 18 samples.

Results

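The genes described here encode axon guidance receptors, their ligands and the proteins that relay their signals inside the cell, measured in nuclei of R1-R6 photoreceptors, the outer light-sensing neurons of the fly eye. They were chosen as the rows of the count table whose FlyBase identifier maps to a list of 40 symbols. The rule itself uses no measured value, though the list was drawn up with earlier results of these data known. All 40 were among the 17811 features of the table and all 40 had more than 10 counts in every sample, as did 9427 features in all. By system they are 4 Slit-Robo genes, 4 netrin genes, 4 Dscam genes, 8 semaphorin-plexin genes, 2 ephrin genes, 7 cell adhesion genes, 4 receptor tyrosine phosphatases, 4 intracellular effectors and 3 cadherins.

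RNA was sequenced from nuclei that were pulled down through a GFP tag on the nuclear envelope, so the values are levels of nuclear RNA after removal of ribosomal RNA. The 18 samples form 6 groups of 3 biological replicates, each replicate a pool of many flies. Flies aged under normal light-dark cycles were taken at day 5 (D5), day 15 (D15) and day 30 (D30), and day 5 flies were exposed to strong blue light for 3, 5 or 8 h and frozen at once. The D5 group, unexposed to blue light, was the common control, so the 5 comparisons with it share those samples and are not independent.

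Every fly was a male of w1118; cn bw; Rh1-GFP-Msp300KASH, white-eyed because cn bw depletes the eye pigment. The tag was driven by Rh1 regulatory elements, active in R1-R6 cells, from 1 insertion line that lies at the Catalase gene, and all 6 groups carry it. Per the labels, D5 and D15 shared a sequencing lane, all blue light samples shared another lane of the same flow cell and D30 was run on another flow cell. Lane and condition therefore cannot be told apart in the comparisons of D5 with blue light or with D30, while 8 h against 3 h and D15 against D5 stay within a lane.

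Growing axons read their surroundings through receptors at the growth cone. Secreted Slit repels axons through Robo receptors, netrins attract through Frazzled and can repel through Unc-5, semaphorins act on plexins, and adhesion proteins such as Dscams, fasciclins and cadherins let neurites recognise each other, while effectors such as Abl, Ena, Dock and Trio pass these signals to the actin cytoskeleton. In the fly visual system, dock, trio, Lar, Ptp69D, CadN, fmi and the Dscam genes are known for roles in where photoreceptor axons stop and connect during development.

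Between 11.4 and 20.5 M counts fell on genes in each sample. Levels are given as cpm, counts scaled to a common library size after TMM normalization, replicate 1 to 3 in that order, and between genes as cpm per kilobase of exon (RPKM). Differences were tested with edgeR's quasi-likelihood test, with 2 factors of unwanted variation (RUVs) in the model, and called at a Benjamini-Hochberg adjusted p under 0.05 over the 9427 features. The cpm values are before that correction, so a fitted difference can depart from them. The 10 markers of R1-R6 cells summed to 47153 to 89242 cpm per sample and the 11 glial markers to 380 to 2240.1 cpm, with the glial regulator repo at 16.0 to 35.5 cpm. The 5 muscle markers summed to 464 to 2080 cpm and the 3 fat body markers to 587 to 2148 cpm. R1-R6 markers thus had the highest sums, but the samples held RNA of other cells. No unselected nuclei are among the 18 samples, so the degree of enrichment was not measured. A lower share of a cell type and less RNA per cell cannot be told apart in these samples.

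The level of the guidance genes in young photoreceptor nuclei spanned a wide range. At D5, CadN, the N-cadherin of neurons, had the highest RPKM of the 40 at 176 ± 23.6 (mean ± SD, n = 3), followed by trio, an intracellular guidance effector, at 96.7 ± 8.01. Mical, the redox enzyme that disassembles actin downstream of plexins, stood at 59.8 ± 5.97 RPKM and dock, the adaptor that links receptors to Pak, at 45.8 ± 15.4. Eph, Ptp99A, Abl, PlexA and Sema1a followed between 27.5 and 31.8 RPKM and were within 1 SD of their neighbours. The low end held NetA at 1.29 ± 0.1 RPKM, robo2 at 2.53 ± 0.0443, unc-5 at 4.29 ± 0.346 and robo3 at 4.48 ± 0.544. NetA had only 19 to 127 counts per sample, the fewest of the 40.

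Comparison by comparison, few guidance genes passed the test after light, and all calls at D30 were decreases. The direction of the calls after 8 h depended on the model. At 3 h of blue light 2 rose and 2 fell, beside 4.64% and 3.25% of all tested features. At 5 h 0 rose and 2 fell, beside 5.07% and 4.53%. At 8 h 5 rose and 1 fell, beside 4.6% and 4.48%. That 8 h split changed with the fit, as did the share of all features called higher and lower. It was 5 higher and 11 lower without the RUVs factors, beside 7.79% and 11.3%. With 1 factor it was 7 and 15, beside 15% and 19.8%. With no filter on low counts it was 5 and 9, beside 5.3% and 7.92%. A fit of only the 6 samples compared gave 11 and 11, beside 15.5% and 17.6%. Without 8 h replicate 1 it was 5 and 6, beside 4.83% and 4.96%. At D15 0 rose and 1 fell, beside 1.52% and 2.29%. At D30 0 rose and 14 fell, which is 35% of the 40 beside 8.72% of all features called lower and 8.79% called higher. At an unadjusted p under 0.05 the guidance genes higher than D5 numbered 0 at 5 h, 0 at D15 and 2 at D30, beside 13.7%, 10.3% and 17.2% of all features. DESeq2's Wald test called 0 higher in each of these, with 9, 1 and 17 lower. That test called 6.38%, 3.02% and 9.59% of all features higher and 7.12%, 3.96% and 10.5% lower. In all, 19 of the 40 were called in at least 1 comparison with D5, 6 of them in more than 1, and 21 in none. The members' median log2 fold change was -0.26 after 3 h, -0.36 after 5 h and -0.19 after 8 h of light, -0.15 in D15 and -0.31 in D30, where the median of all tested features lay between -0.03 and 0.05.

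**Figure D1:**
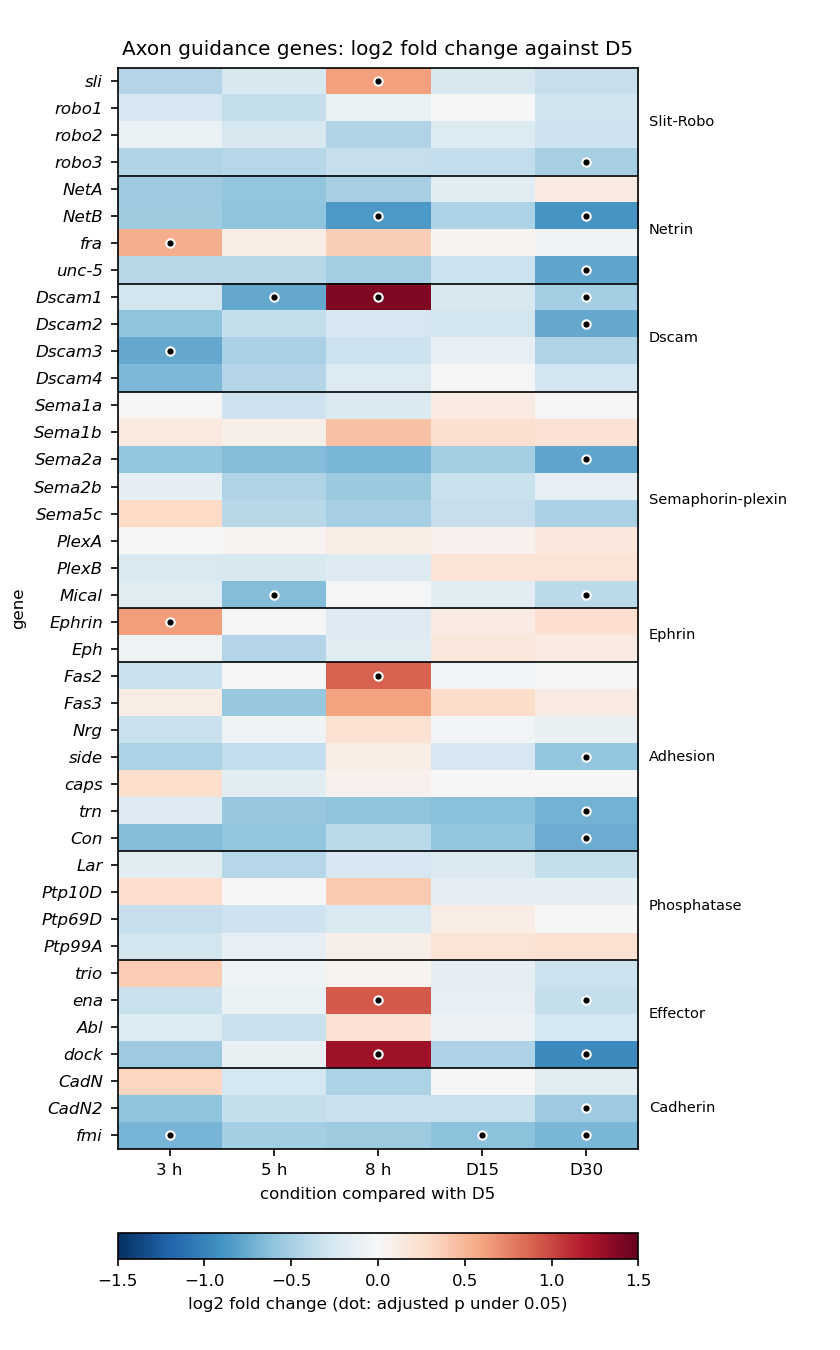
Log2 fold change of each of the 40 genes (rows, by system) against D5 in the 5 conditions (columns), from blue (lower) to red (higher), with a dot where the adjusted p was under 0.05. Dots on red cells sit mainly in the 8 h column (sli, Dscam1, Fas2, ena, dock), and the D30 column holds 14 dots, all on blue cells.

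In the Slit-Robo system the ligand rose after 8 h of light and the 3 receptors missed the threshold at every exposure in the fit with 2 factors, a contrast that turns without the factors. sli, the gene of the secreted repellent Slit, had 169, 213 and 204 cpm at D5 and 314, 247 and 226 cpm at 8 h. The 8 h samples lay above all D5 samples (fitted log2 difference 0.62, SE 0.14, edgeR adjusted p = 0.0165). After 3 h sli stood at 174, 168 and 171 cpm, after 5 h at 205, 169.9 and 136, at D15 at 178, 157 and 152 and at D30 at 179, 152 and 158, ranges that overlap D5. Between 3 h and 8 h, within the same lane, sli rose by a log2 difference of 1.06 (SE 0.17) with edgeR adjusted p = 0.00125. Without the RUVs factors sli lost its 8 h call (edgeR adjusted p = 0.0749), whereas robo3 was called lower after 3 h, 5 h and 8 h (edgeR adjusted p = 0.027, 0.0277 and 0.0166) and robo2 after 8 h (edgeR adjusted p = 0.0146).

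The Robo receptors differed in level more than in response. robo1, the main receptor for Slit repulsion at the fly midline, had 115, 94.5 and 101 cpm at D5, 73.1, 84.7 and 88.6 at 3 h, 78.5, 79.6 and 94.5 at 5 h and 116, 116 and 103 at 8 h, and 107, 105 and 111 in D15 and 68.4, 81.6 and 89.2 in D30. The samples at 3 h, 5 h and D30 all lay below D5, with log2 fold changes of -0.26, -0.36 and -0.30 and edgeR adjusted p values of 0.235, 0.0548 and 0.0553, none past the threshold. robo2, which with robo3 helps set the lateral position of axons in the nerve cord, had 15.4, 15.9 and 15.7 cpm at D5, 15.1, 12.5 and 14.5 at 3 h, 11.4, 12.5 and 11.99 at 5 h, 10.9, 9.65 and 8.12 at 8 h, 15.9, 10.99 and 11.3 in D15 and 14.6, 14.99 and 11.1 in D30, and was called in none of the comparisons. Exons of robo2 overlap those of noncoding genes on both strands in the annotation, so its counts are uncertain. robo3 had 27.4, 34.3 and 33.9 cpm at D5, 22.9, 18.6 and 20.8 at 3 h, 17.9, 20.6 and 21.6 at 5 h, 22.1, 19.5 and 17.1 at 8 h and 24.9, 19.96 and 21.1 at D15, below D5 in each. At D30 it stood at 31.02, 25.1 and 19.1 cpm, with 1 sample inside the D5 range, and was called lower (fitted log2 difference -0.49, SE 0.13, edgeR adjusted p = 0.0168). Per exon length at D5, sli at 20.3 ± 2.38 RPKM and robo1 at 15.3 ± 1.55 exceeded robo3 at 4.48 ± 0.544 by more than their spread.

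In the netrin system 1 ligand and 1 receptor fell at D30, and the attractive receptor rose at 3 h. NetB, a secreted netrin encoded near NetA on the X chromosome, had 49.3, 61.6 and 60.4 cpm at D5 and every sample of the other 5 groups lay below these. It stood at 42.1, 32.8 and 37.1 cpm at 3 h, 31.5, 33.3 and 33.997 at 5 h, 35.9, 22.5 and 18.1 at 8 h, 43.96, 33.2 and 35.5 in D15 and 37.3, 30.4 and 32.3 in D30. NetB was called lower at 8 h (fitted log2 difference -0.86, SE 0.22, edgeR adjusted p = 0.0251) and at D30 (fitted log2 difference -0.88, SE 0.18, edgeR adjusted p = 0.00484). The fitted values at 3 h, 5 h and D15 were -0.53, -0.60 and -0.48 and missed the threshold (edgeR adjusted p = 0.165, 0.0678 and 0.151). The 8 h call of NetB was lost without D5 replicate 3 (edgeR adjusted p = 0.0782) or without 8 h replicate 2 (edgeR adjusted p = 0.0628).

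NetA, the second netrin gene, had 4.56, 3.93 and 4.43 cpm at D5, 3.52, 2.22 and 2.35 at 3 h, 2.27, 2.302 and 2.18 at 5 h, 1.45, 1.07 and 3.65 at 8 h, 4.79, 1.82 and 3.44 in D15 and 6.69, 6.17 and 3.79 in D30. The 3 light groups lay below D5 in cpm. At these counts its fitted differences had standard errors of 0.37 to 0.57 and none was called. unc-5, the repulsive netrin receptor, had 21.1, 21.8 and 24.5 cpm at D5, 18.7, 16.05 and 14.8 at 3 h, 16.01, 14.8 and 16.5 at 5 h, 16.5, 13.1 and 11.98 at 8 h, 19.02, 15.6 and 16.8 in D15 and 12.96, 14.9 and 12.8 in D30. Every sample of the other 5 groups lay below D5, and the decrease was called at D30 (fitted log2 difference -0.79, SE 0.14, edgeR adjusted p = 0.00222). fra, the attractive receptor and fly counterpart of DCC, had 59.1, 54.4 and 52.3 cpm at D5 and 69.9, 64.7 and 81.1 at 3 h, with no overlap, and rose (fitted log2 difference 0.55, SE 0.13, edgeR adjusted p = 0.0217). At 5 h fra stood at 48.2, 61.5 and 63.997 cpm, at 8 h at 72.5, 77.6 and 73.4, at D15 at 58.8, 57.9 and 52.9 and at D30 at 52.1, 52.4 and 52.1, and the 8 h samples, though all above D5, missed the threshold (edgeR adjusted p = 0.0844). The 3 h call of fra was lost without D5 replicate 3, 3 h replicate 1 or 3 h replicate 3 (edgeR adjusted p = 0.0721, 0.0628 and 0.0596) and stood at 0.0505 without the RUVs factors. Without them NetB was also called lower at 3 h and 5 h (edgeR adjusted p = 0.049 and 0.0244), unc-5 lower at 5 h and 8 h (edgeR adjusted p = 0.0424 and 0.00943) and fra higher at 8 h (edgeR adjusted p = 0.0321).

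Among the semaphorins, 1 of 5 ligand genes fell at D30 and neither plexin was called in any comparison. Sema2a, a secreted semaphorin that repels through PlexB, had 20.7, 24.5 and 20.7 cpm at D5, 18.3, 13.8 and 15.8 at 3 h, 14.6, 13.5 and 13.1 at 5 h, 18.1, 11.7 and 6.98 at 8 h, 16.9, 13.7 and 14.02 in D15 and 11.01, 14.5 and 14.2 in D30. The decrease was called at D30 (fitted log2 difference -0.80, SE 0.25, edgeR adjusted p = 0.0392), and none of the other samples reached the lowest D5 value. Sema2b, the other secreted PlexB ligand, had 56.8, 43.8 and 55.2 cpm at D5, 42.6, 30.9 and 39.4 at 3 h, 25.5, 37.4 and 37.7 at 5 h, 39.4, 29.3 and 31.5 at 8 h, 45.99, 40.4 and 29.8 in D15 and 54.4, 35.3 and 54.6 in D30. All 3 light groups of Sema2b lay below D5 while its D15 and D30 samples overlapped D5, and no comparison was called. Sema5c, a transmembrane semaphorin with thrombospondin repeats, had 27.7, 25.3 and 25.8 cpm at D5, 25.4, 22.96 and 21.7 at 3 h, 12.1, 11.8 and 21.3 at 5 h, 14.9, 11.4 and 14.1 at 8 h, 23.97, 12.7 and 16.2 in D15 and 25.1, 25.1 and 13.5 in D30. Its largest fitted difference, -0.80 between 8 h and 3 h, missed the threshold (edgeR adjusted p = 0.0598). Without the factors Sema2a and Sema5c were called lower at 8 h than at D5 (edgeR adjusted p = 0.0301 and 0.0261).

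The transmembrane semaphorins that bind PlexA were not called in the fit with 2 factors. Without the factors Sema1b was called higher at 8 h than at 3 h (edgeR adjusted p = 0.00375). Sema1a, which can also signal backwards into the photoreceptor axon, had 291, 297 and 251 cpm at D5, 219.7, 221 and 239 at 3 h, 153, 247 and 270.1 at 5 h, 293, 267 and 263 at 8 h, 339, 284 and 295 in D15 and 211, 285 and 311 in D30. Sema1b had 90.2, 72.6 and 84.5 cpm at D5 and, without overlap, 43.4, 58.1 and 36.7 at 3 h and 127, 116 and 123 at 8 h. The fit with the RUVs factors put Sema1b at 0.14 (SE 0.15) at 3 h, where its cpm were lower than at D5, so the sign at 3 h rests on the correction. At 5 h Sema1b was 28.9, 84.5 and 116 cpm, with replicate 1 below every other sample of the series, and it was 86.95, 86.9 and 89.7 in D15 and 93.8, 84.6 and 87.2 in D30.

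PlexA, the receptor of the transmembrane semaphorins, had 315, 297 and 307 cpm at D5, 370.4, 432 and 486 at 3 h, 536, 407 and 279.5 at 5 h, 404, 388 and 354 at 8 h, 342, 398 and 343 in D15 and 288, 322 and 388 in D30. Its 3 h samples were all higher than D5 in cpm while the fitted log2 fold change was 0.00. PlexB, the receptor of Sema2a and Sema2b, had 72.3, 54.98 and 60.5 cpm at D5, 46.5, 60.5 and 66.95 at 3 h, 61.7, 64.8 and 55.1 at 5 h, 73.6, 63.4 and 62.9 at 8 h, 72.4, 87.8 and 76.6 in D15 and 57.5, 70.9 and 74.9 in D30. Per exon length at D5, PlexA at 28.9 ± 0.848 RPKM exceeded PlexB at 8.88 ± 1.25, and both plexins exceeded Sema2a at 5.28 ± 0.523 by more than the spread.

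Mical, the plexin effector, fell at 5 h and at D30. It had 868, 1056 and 1007 cpm at D5 and 613, 638 and 637 at 5 h, with no overlap (fitted log2 difference -0.65, SE 0.11, edgeR adjusted p = 0.00489). At 3 h it stood at 830.02, 853 and 910.3 cpm and at 8 h at 997, 1022 and 912, both overlapping D5. At D15 Mical was 867, 833 and 949.8 cpm, overlapping D5, and at D30 714, 750.2 and 736, below every D5 sample (fitted log2 difference -0.41, SE 0.10, edgeR adjusted p = 0.0156). Both calls held when each D5 or exposed sample was left out in turn. Without the RUVs factors the D30 call was lost (edgeR adjusted p = 0.065).

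**Figure D2:**
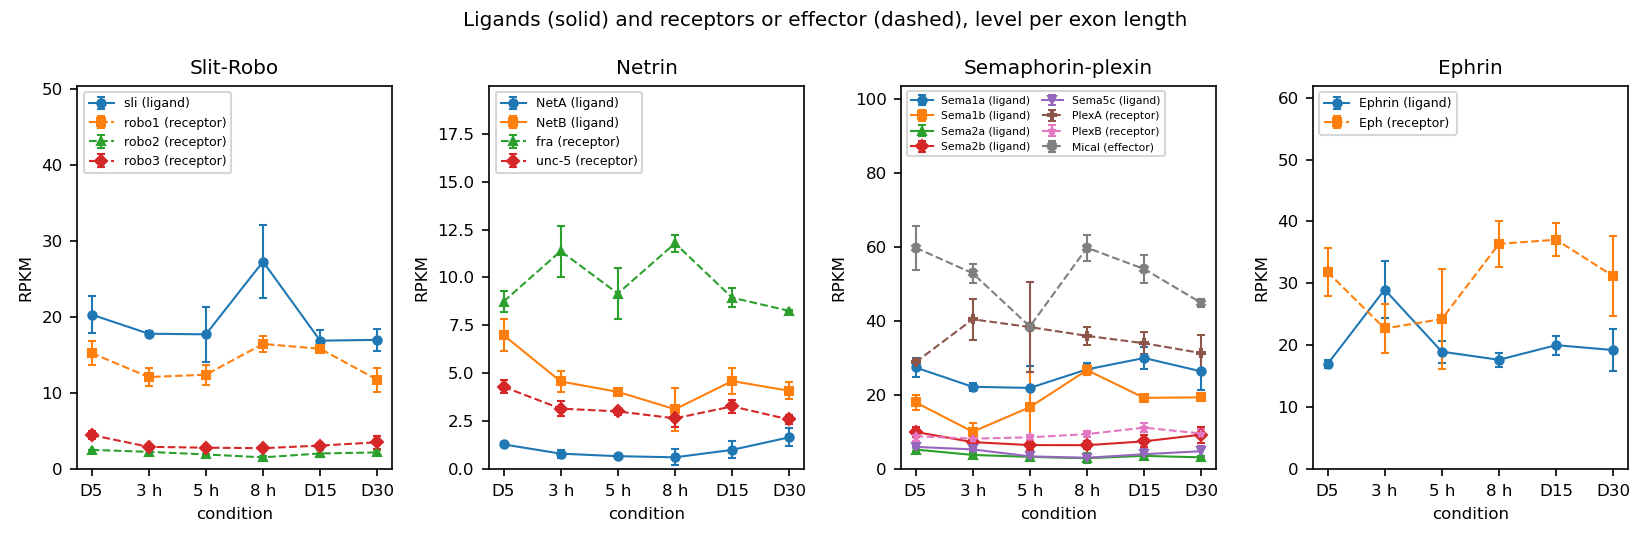
Mean RPKM (cpm per kilobase of exon, linear axis from 0) of the ligands (solid lines) and receptors or the effector Mical (dashed lines) of 4 guidance systems in the 6 conditions, with error bars of 1 SD over 3 replicates. sli peaks at 8 h and Ephrin at 3 h, while NetB and unc-5 are highest at D5 and Mical is lowest at 5 h.

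The single ephrin ligand of the fly rose at 3 h and fell again between 3 h and 8 h. Ephrin, a membrane ligand of the Eph receptor kinase, had 86.003, 93.5 and 90.9 cpm at D5 and 127, 172 and 163 at 3 h, with no overlap (fitted log2 difference 0.63, SE 0.14, edgeR adjusted p = 0.012). At 5 h Ephrin stood at 104, 108 and 90.3 cpm and at 8 h at 101, 89.8 and 90.8, and both groups overlapped D5. The fall from 3 h to 8 h, within 1 lane, was called as well (fitted log2 difference -0.82, SE 0.16, edgeR adjusted p = 0.00386). At D15 Ephrin was 104, 115 and 99.7 cpm and at D30 88.6, 95.4 and 122, and neither was called, though the D15 samples all lay above D5. Both light calls of Ephrin held when any single sample was left out.

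Eph, the only Eph receptor gene of the fly, was not called in the fit with 2 factors, though without them it was higher at 8 h than at 3 h (edgeR adjusted p = 0.0274). It had 208, 175 and 166 cpm at D5, 106, 152 and 134 at 3 h, 86.7, 159 and 173 at 5 h, 233, 192 and 203 at 8 h, 201, 230.3 and 208 in D15 and 144, 176 and 218 in D30. The 3 h samples of Eph were below D5 in cpm, with a fitted log2 fold change of -0.08 after the correction. Per exon length Eph exceeded Ephrin at D5 (31.8 ± 3.83 against 16.97 ± 0.717 RPKM), whereas at 3 h the order of the means was the reverse (22.7 ± 4.03 against 28.995 ± 4.57 RPKM), with overlapping SDs.

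The Dscam genes encode immunoglobulin-family receptors by which neurites recognise their own kind, and Dscam1 and dock had the largest fitted rises of the 40 at 8 h, Dscam1 first in the fit with 2 factors and dock first without factors. Dscam1 stood at 245, 344 and 339.9 cpm at D5, 364, 324 and 333 at 3 h and 273, 179.9 and 152 at 5 h. At 8 h it stood at 926, 698 and 525 cpm, above every other sample of the series. It was called lower at 5 h (fitted log2 difference -0.76, SE 0.18, edgeR adjusted p = 0.0183) and higher at 8 h (fitted log2 difference 1.39, SE 0.20, edgeR adjusted p = 0.00133), a 2.62-fold rise. Within the lane, 8 h exceeded 3 h by a log2 difference of 1.66 (SE 0.23), edgeR adjusted p = 0.000674. In aged flies Dscam1 stood at 284, 240.5 and 267 cpm in D15 and 211, 248 and 234 in D30, where 2 samples lay below D5 and 1 inside its range, and it was called lower at D30 (fitted log2 difference -0.51, SE 0.16, edgeR adjusted p = 0.0451).

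The rise of Dscam1 at 8 h was called in all 6 fits that left out 1 of the samples compared. The 5 h call was lost without D5 replicate 2, D5 replicate 3, 5 h replicate 2 or 5 h replicate 3 (edgeR adjusted p = 0.0516, 0.0653, 0.0512 and 0.0856). It was also lost without the RUVs factors (edgeR adjusted p = 0.0771). Exons of Dscam1 overlap noncoding antisense genes, and the strand setting of the counting is not given in the sources used here, so reads of the partners cannot be told apart. The same limit applies to Abl, Ptp99A and unc-5, whose exons share 5271, 1575 and 227 bases with features of the other strand, and to some other members.

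Dscam2, which in the visual system mediates avoidance between neighbouring columns, had 204, 287 and 274 cpm at D5 and 205, 144 and 147 at D30, where 1 sample lay at the bottom of the D5 range, and fell (fitted log2 difference -0.77, SE 0.18, edgeR adjusted p = 0.0112). Dscam3 fell at 3 h, from 89.4, 121 and 118 to 78.4, 51.96 and 79.2 cpm, without overlap (fitted log2 difference -0.77, SE 0.22, edgeR adjusted p = 0.0433). That call was lost without D5 replicate 2 or 3 or without 3 h replicate 1 or 2 (edgeR adjusted p = 0.104, 0.0895, 0.121 and 0.129). It was also lost without the factors (edgeR adjusted p = 0.0549). Dscam4 went from 90.5, 118 and 106 to 70.4, 54.1 and 80.7 cpm at 3 h, with a fitted value of -0.68 that missed the threshold (edgeR adjusted p = 0.0686). In the fit with 2 factors the 8 h values of Dscam2, Dscam3 and Dscam4 were -0.25, -0.32 and -0.21 on the log2 scale, beside 1.39 for Dscam1. Without the factors they were -0.61, -0.73 and -0.56, beside 1.21 for Dscam1, and Dscam3 was called lower (edgeR adjusted p = 0.0357).

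Of the 7 cell adhesion genes, 1 rose at 8 h and 3 fell at D30. Fas2, a homophilic adhesion protein that bundles axons, had 85.3, 108 and 101 cpm at D5, 119, 106 and 93.7 at 3 h and 154, 106 and 78.1 at 5 h. At 8 h Fas2 stood at 189, 180.4 and 150.04 cpm, above every D5 sample (fitted log2 difference 0.89, SE 0.16, edgeR adjusted p = 0.00507). It exceeded 3 h by a log2 difference of 1.22 (SE 0.19) (edgeR adjusted p = 0.00125). With age Fas2 was at 108, 93.5 and 95.5 cpm in D15 and 88.7, 95.4 and 116 in D30, overlapping D5, with fitted values of -0.04 and -0.02.

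side, whose protein Sidestep attracts motor axons through Beat receptors, had 69.9, 85.7 and 84.8 cpm at D5, 72.05, 47.02 and 65.3 at 3 h, 61.2, 52.9 and 51.1 at 5 h, 80.7, 61.3 and 50.6 at 8 h, 73.5, 54.7 and 54.3 in D15 and 74.8, 57.5 and 50.1 in D30. It was called lower at D30 (fitted log2 difference -0.58, SE 0.14, edgeR adjusted p = 0.014) although 1 D30 sample lay inside the D5 range. trn, a leucine-rich-repeat protein related to Capricious, fell from 16.6, 13.7 and 15.8 cpm at D5 to 11.7, 9.11 and 9.07 at D30 (fitted log2 difference -0.71, SE 0.22, edgeR adjusted p = 0.0355). Con, the homophilic protein Connectin, fell from 34.03, 43.3 and 45.98 to 25.8, 24.6 and 26.3 cpm (fitted log2 difference -0.75, SE 0.19, edgeR adjusted p = 0.0142). The trn and Con samples at D30 all lay below D5, as they did at 3 h, 5 h and D15. The fitted values there were -0.65, -0.59 and -0.60 for Con and -0.19, -0.57 and -0.63 for trn, none called. Without the factors Con was called lower at 3 h, 5 h and 8 h (edgeR adjusted p = 0.0208, 0.0292 and 0.0456). trn was then called lower at 5 h and 8 h (edgeR adjusted p = 0.0367 and 0.026). Neither was called at D30 without them (edgeR adjusted p = 0.138 for trn and 0.0552 for Con). The other adhesion genes, Fas3, Nrg and caps, had log2 fold changes between -0.57 and 0.60 against D5 and were not called there in the fit with 2 factors. The 5 h samples of Fas3, at 37.9, 37.7 and 32.3 cpm, lay below every other sample of the series. Its fitted value at 5 h was -0.57 (edgeR adjusted p = 0.0849, or 0.0461 without the factors).

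Nrg, the fly L1 homolog, shows how far the correction can reach. Its cpm were 235, 219 and 221 at 3 h and 172, 167 and 154 at 8 h, lower at 8 h in every sample, yet the fit called it higher at 8 h than at 3 h (fitted log2 difference 0.57, SE 0.17, edgeR adjusted p = 0.04). Without the RUVs factors the difference was -0.45 (edgeR adjusted p = 0.231). The call was also lost without 3 h replicate 1 or 3 or any 8 h replicate (edgeR adjusted p = 0.0619 to 0.189), and no direction is drawn for Nrg.

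Of the 4 intracellular effectors, dock and ena were called higher at 8 h and lower at D30. The D30 call held in all 6 fits that left out 1 sample for dock, but in 2 of 6 for ena. Without the factors dock kept its D30 call (edgeR adjusted p = 0.03), while ena stood at -0.21 (edgeR adjusted p = 0.528). dock, the SH2-SH3 adaptor, had 111, 226 and 176 cpm at D5, 127, 162 and 129.9 at 3 h and 191, 191 and 146 at 5 h. At 8 h it stood at 432, 459 and 404 cpm, 2.41-fold higher in the fit (fitted log2 difference 1.27, SE 0.28, edgeR adjusted p = 0.0126), and the lowest 8 h sample was above every sample of the other 5 groups. Against 3 h the log2 difference was 1.81 (SE 0.32), edgeR adjusted p = 0.00235. At D15 dock was 96.8, 138 and 156 cpm and at D30 79.4, 102 and 81.6, below all D5 samples, and it fell at D30 (fitted log2 difference -0.95, SE 0.22, edgeR adjusted p = 0.0104).

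ena, which promotes actin filament growth at the growth cone, had 52.9, 65.1 and 59.9 cpm at D5, 61.1, 54.5 and 46.9 at 3 h, 65.4, 51.3 and 44.3 at 5 h and 86.8, 94.9 and 84.002 at 8 h. The 8 h samples did not overlap any other group, and ena rose by a log2 fold change of 0.92 (SE 0.13) (edgeR adjusted p = 0.00111). At D15 it stood at 54.9, 48.5 and 50.6 cpm and at D30 at 61.6, 51.9 and 40.5, with a called decrease at D30 (fitted log2 difference -0.36, SE 0.11, edgeR adjusted p = 0.0305) that overlaps D5. Abl, the tyrosine kinase that acts with Ena, had 477, 515 and 479.5 cpm at 8 h against 314, 441 and 371 at D5, not overlapping but not called (log2 fold change 0.22, edgeR adjusted p = 0.523). The 8 h samples of Abl lay above every other sample of the series. Against 3 h its fitted log2 difference was 0.43 (edgeR adjusted p = 0.247), and 1.06 without the factors (edgeR adjusted p = 0.00275). trio had 1713, 1805 and 2109.6 cpm at 3 h against 1032, 1194 and 1045 at D5, with a fitted value of 0.38 that missed the threshold (edgeR adjusted p = 0.112, or 0.0116 without the factors). At D30 trio stood at 655, 934 and 966 cpm, below every other sample of the series, with a fitted value of -0.32 (edgeR adjusted p = 0.0645).

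**Figure D3:**
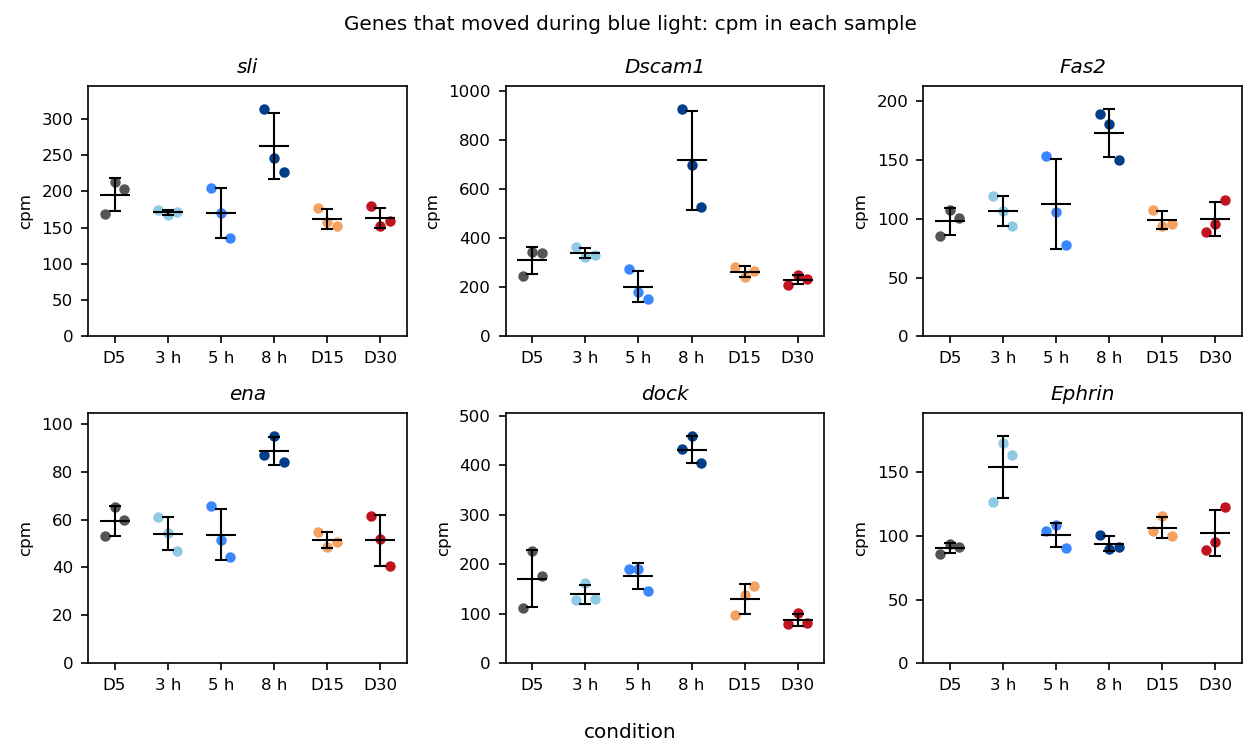
Cpm in each of the 18 samples (points, linear axes from 0) for 6 genes that changed after blue light, by condition, with the group mean and 1 SD over 3 replicates. The 8 h points of sli, Dscam1, Fas2, ena and dock lie above all D5 points, and the 3 h points of Ephrin lie above all its D5 points.

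The cadherins included the only gene called at D15. fmi, listed in current annotation as stan, is an atypical cadherin by which R1-R6 growth cones choose their targets. It had 61.3, 80.6 and 86.6 cpm at D5, 57.4, 44.5 and 52.2 at 3 h, 59.8, 41.8 and 46.1 at 5 h, 49.5, 36.9 and 33.3 at 8 h, 54.3, 42.6 and 40.5 in D15 and 66.2, 46.1 and 46.9 in D30. At every exposure and at D15 the samples lay below D5, and at D30 1 sample fell within the D5 range. fmi was called lower at 3 h (fitted log2 difference -0.70, SE 0.19, edgeR adjusted p = 0.0334), at D15 (fitted log2 difference -0.62, SE 0.15, edgeR adjusted p = 0.0407) and at D30 (fitted log2 difference -0.69, SE 0.15, edgeR adjusted p = 0.0075). The D15 call was lost in 5 of 6 fits that left out 1 sample, all but the one without D5 replicate 1 (edgeR adjusted p = 0.0692 to 0.221). The 3 h call was lost without D5 replicate 2 or 3 or without 3 h replicate 1 or 2 (edgeR adjusted p = 0.0699, 0.0752, 0.122 and 0.0832). At 8 h the fitted value of fmi was -0.54 (edgeR adjusted p = 0.0774). Without the factors fmi was called lower at 8 h (-0.93, edgeR adjusted p = 0.00962). It was then not called at 3 h, D15 or D30 (edgeR adjusted p = 0.0655, 0.131 and 0.154).

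CadN2, the shorter N-cadherin gene next to CadN, had 43.7, 55.7 and 52.4 cpm at D5 and 55.03, 31.9 and 33.5 at D30. It was called lower at D30 (fitted log2 difference -0.55, SE 0.17, edgeR adjusted p = 0.036) with replicate 1 inside the D5 range. The 8 h samples of CadN2 all lay below D5, with a fitted value of -0.34 (edgeR adjusted p = 0.31). Without the factors that decrease was called (-0.85, edgeR adjusted p = 0.0248). CadN had 2929.98, 2387 and 2305 cpm at D5, 2515, 2509 and 3155 at 3 h, 2139.7, 2639 and 2615 at 8 h and 1341, 2324 and 2547 at D30, where replicate 1 stood apart. The fitted decrease of CadN from 3 h to 8 h was called (fitted log2 difference -0.79, SE 0.23, edgeR adjusted p = 0.0297) with overlapping samples, and was lost without the factors and in 5 of 6 fits that left out 1 sample, all but the one without 3 h replicate 2 (edgeR adjusted p = 0.0556 to 0.303).

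The 4 receptor tyrosine phosphatases, which oppose or tune kinase signals at the growth cone, missed the threshold in all 5 comparisons with D5 (lowest edgeR adjusted p = 0.0583), with 7 of the 20 tests at an unadjusted p under 0.05. Without the factors Ptp99A was called lower at 3 h than at D5 (edgeR adjusted p = 0.0301) and higher at 8 h than at 3 h (edgeR adjusted p = 0.00122). The fit with 2 factors did not call its difference between 8 h and 3 h (edgeR adjusted p = 0.0994). Their log2 fold changes ran from -0.43 (Lar at 5 h) to 0.40 (Ptp10D at 8 h). Ptp99A stood at 160.5, 209 and 199.98 cpm at 3 h, below 319, 249 and 267 at D5, and at 361, 352 and 329.6 at 8 h, above it. The exons of Lar share 8637 bases with CG46244 on the same strand, where reads would be ambiguous to the counting, so its level is uncertain.

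Across all 40, more genes had all samples below D5 than all above it after 3 h and 5 h, and about as many after 8 h. After 3 h, 20 of the 40 had samples all below D5 and 5 all above, beside 22.9% and 22.3% of all features. After 5 h the numbers were 21 and 0, beside 14.2% and 12.6%, and 37 of the 40 fitted values were negative. After 8 h they were 12 and 11, beside 25.2% and 25.1%. The split of calls depends on the correction: without the factors 2 rose and 4 fell at 3 h and 5 rose and 11 fell at 8 h, where the fit with 2 factors gave 5 and 1. Of all features, 12.9% rose and 6.3% fell at 3 h without the factors, and 7.79% and 11.3% at 8 h. The first factor ran from 1.2 to 1.66 in the 3 h samples and from -0.774 to -0.198 at D5, and the second from -1.65 to -0.71 in the 8 h samples against 0.211 to 0.836 in D5, so the factors separate these groups too. Single samples moved these counts as well. The 4 calls at 3 h became 2, 1, 1 and 2 without D5 replicate 2, D5 replicate 3, 3 h replicate 1 and 3 h replicate 2. Those fits called 8.47%, 4.39%, 4.8% and 5.91% of all features. The 2 calls at 5 h became 6, 1 and 1 without D5 replicate 1, D5 replicate 2 and 5 h replicate 2, and the 6 calls at 8 h became 11, with 5 higher and 6 lower, without 8 h replicate 1. The 5 h fits called 11%, 5.93% and 5.83% of all features and the 8 h fit 9.79%. The summed glial markers, 1539 to 2240.1 cpm at 3 h against 659 to 764 at D5, and 380 to 449 at 8 h, moved with the same groups. The 3 h sum was raised by Eaat1, a glutamate transporter gene, with a group mean of 1406 cpm against 127 at D5. It was the 1 marker of 10 called higher at 3 h, while 5 of the 10, by their samples, lay below D5 without overlap. After 8 h 2 of the 10 were called lower. Of 6 hemocyte markers 2 were called lower at 3 h, 1 at 5 h and 1 at 8 h. At 8 h, 2 of 13 neuronal markers, 2 of 2 fat body markers and 0 of 4 muscle markers tested were called lower, and 0 higher. The neuronal markers were picked for neurons other than photoreceptors, except elav, which all neurons share. The part of these cells in these results was not tested.

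Over the exposure, 6 guidance genes were higher and 2 lower at 8 h than at 3 h, beside 6.43% and 9.1% of all features. The genes higher were dock, Dscam1, ena, Fas2, sli and, with the reservation above, Nrg, and the genes lower were Ephrin and CadN. The rises of dock, Dscam1, ena, Fas2 and sli and the fall of Ephrin were called in all 6 fits that left out 1 sample and without the factors. These groups share a lane. In cpm, 12 of the 40 were higher in every 8 h sample and 5 lower, beside 27.2% and 29.2% of all features.

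At D15, 9 of the 40 had samples all below D5 and 3 all above, beside 17.2% and 16.8% of all features, and fmi alone was called. The number called was 2 without D5 replicate 1 and 0 in the other 5 fits that left out 1 sample, as it was without the RUVs factors. Of all features, 4.89% were called without D5 replicate 1, 0.106% to 2.34% in the other 5 fits and 0.159% without the factors. At D15, 4 of 6 hemocyte markers, 3 of the 13 neuronal markers (Gad1, VGlut and VAChT) and 1 of 10 glial markers were called lower. Hemocyte sums were 187 to 220.3 cpm against 388 to 457 at D5, and the part of these cells was not tested. At D30 the 14 that fell came from 7 of the 9 systems and were robo3, NetB, unc-5, Dscam1, Dscam2, Sema2a, Mical, side, trn, Con, ena, dock, CadN2 and fmi. Their log2 fold changes ran from -0.95 (dock) to -0.36 (ena). In cpm, 11 of the 40 had D30 samples all below D5 and 0 all above, beside 11.1% and 15.4% of all features. No ephrin gene and no phosphatase was among the 14.

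**Figure D4:**
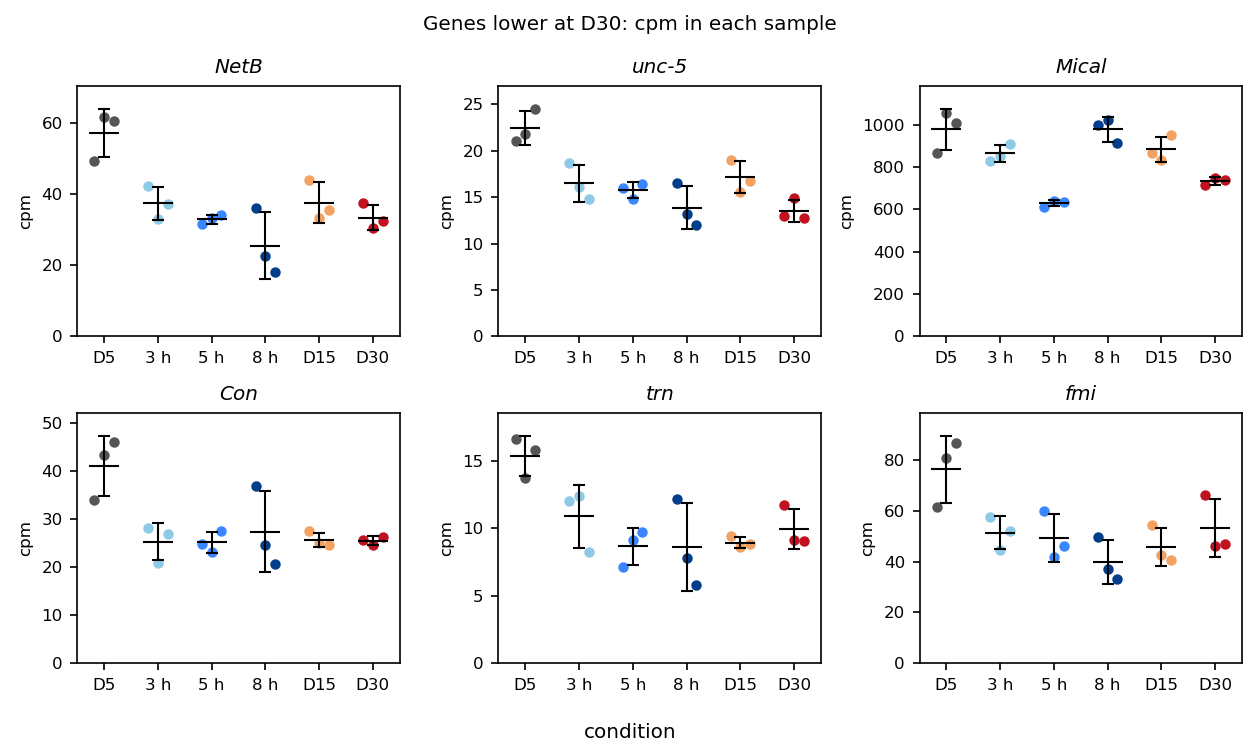
Cpm in each of the 18 samples (points, linear axes from 0) for 6 of the genes called lower at D30, by condition, with the group mean and 1 SD over 3 replicates. All D30 points of NetB, unc-5, Mical, Con and trn lie below all D5 points, and the light-exposed points of NetB, unc-5 and trn do too, while 1 D30 point of fmi lies inside its D5 range.

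The D30 count rests on the model and on single samples. Without the RUVs factors 3 of the 14 were called lower (NetB, unc-5 and dock), beside 1.96% of all features. All features called lower were 6.67% without D30 replicate 3, 5.85% without D5 replicate 3 and 9.02% without D30 replicate 1. NetB, unc-5, Mical and dock were called in all 6 fits that left out 1 sample, whereas without D30 replicate 3 the number called fell to 8 and robo3, Dscam1, Dscam2, Sema2a, side, trn, ena, CadN2 and fmi were lost (edgeR adjusted p = 0.0619 to 0.722). Without D5 replicate 3 the number was also 8, with Dscam1, Sema2a, trn, Con, ena and CadN2 lost (edgeR adjusted p = 0.0504 to 0.136). Leaving out D30 replicate 1 lost Dscam1, Sema2a and trn, D30 replicate 2 those and ena and CadN2, D5 replicate 1 trn, and D5 replicate 2 robo3, Dscam1, Sema2a, ena and CadN2 (edgeR adjusted p = 0.0632 to 0.147).

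Markers of other cells moved with the same comparison. Of the 13 neuronal markers, 6 were called lower at D30 and 0 higher, and the sum of the 13 was 989.6 to 1072 cpm at D30 against 1157 to 1429 at D5. That sum includes elav, which all neurons share, photoreceptors among them, with a group mean of 348 cpm at D30 and 308 at D5. elav was not among the 6, and the sum is not of other neurons alone. Of 10 glial markers tested 4 were called lower, with sums of 475 to 747 cpm at D30 against 659 to 764 at D5, and of 6 hemocyte markers 4 were lower, with sums of 195 to 377 cpm against 388 to 457. Of the defining markers, He of hemocytes was at 0 in some samples and at most 0.415 cpm, while repo of glia stood at 16.0 to 35.5 cpm. Of the 10 R1-R6 markers 3 were called higher and 1 lower at D30, and their sums at D30 were 47153, 76442 and 89242 cpm from lowest to highest against 60277 to 73616 at D5, so the lowest D30 library lay below every D5 library. D30 replicate 1 also had the highest second factor of the 18 samples, 2.47, and a TMM factor of 1.275, and without it 11 guidance genes were called at D30. The part of these markers in the lower guidance genes was not tested.

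Aged flies and flies after 8 h of light differed directly in 7 of the 40, all lower at D30, beside 2.9% of all features called lower and 4.6% called higher. At an unadjusted p under 0.05, 2 were higher, beside 14.1% of all features. DESeq2's Wald test called 0 higher and 7 lower, beside 6.32% and 4.17% of all features. The direct contrast gave dock -2.22 (SE 0.33), Dscam1 -1.89 (SE 0.23), ena -1.28 (SE 0.15), sli -0.96 (SE 0.17), Fas2 -0.90 (SE 0.19), side -0.70 (SE 0.20) and Ptp10D -0.53 (SE 0.15) on the log2 scale. For dock, the D30 samples at 79.4, 102 and 81.6 cpm lay far below 432, 459 and 404 at 8 h (edgeR adjusted p = 0.00128). The calls of dock, Dscam1, ena, sli and Fas2 held when any 1 sample was left out, but side was lost without any of the 3 D30 replicates or without 8 h replicate 1 or 2 (edgeR adjusted p = 0.0978 to 0.65), and Ptp10D without D30 replicate 2 or 3 or 8 h replicate 1 or 2 (edgeR adjusted p = 0.0517 to 0.327). Without the factors 2 were higher and 10 lower, beside 16.8% and 9.03% of all features. Without D30 replicate 3 the numbers were 3 and 11, beside 22% and 14.3%. In cpm, 12 of the 40 had all D30 samples below all 8 h samples and 2 above, beside 21.8% and 24.2% of all features. D30 and 8 h samples were on different flow cells, so flow cell and condition cannot be told apart here.

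The guidance genes are long. In the annotation (BDGP6.54, dm6 coordinates) they span a median of 40.3 kb and from 3.81 kb (trn) to 145.4 kb (Lar), and 28 of the 40, 70%, reach 30 kb or more, whereas the median of the 9370 tested genes with a span is 3.02 kb and 6.86% reach 30 kb. Examples are Dscam1 on chromosome arm 2R from 7317924 to 7381899 on the minus strand, NetB on X from 14686038 to 14749376 on the minus strand, and the compact dock on 2L from 825969 to 833241 on the plus strand. Across all genes the share called lower at D30 was 6.32% for spans under 10 kb, 14.1% from 10 to 30 kb, 24.6% from 30 to 60 kb and 28.9% above. In the same classes 2 of 5, 2 of 7, 5 of 17 and 5 of 11 guidance genes were called lower. Across the 40, span and the D30 log2 fold change had a Spearman rho of -0.04, and across the 9370 genes -0.13, given as descriptions over genes that share the same libraries. The short genes dock, at 7.3 kb, and trn, at 3.8 kb, were among the guidance genes that fell.

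**Figure D5:**
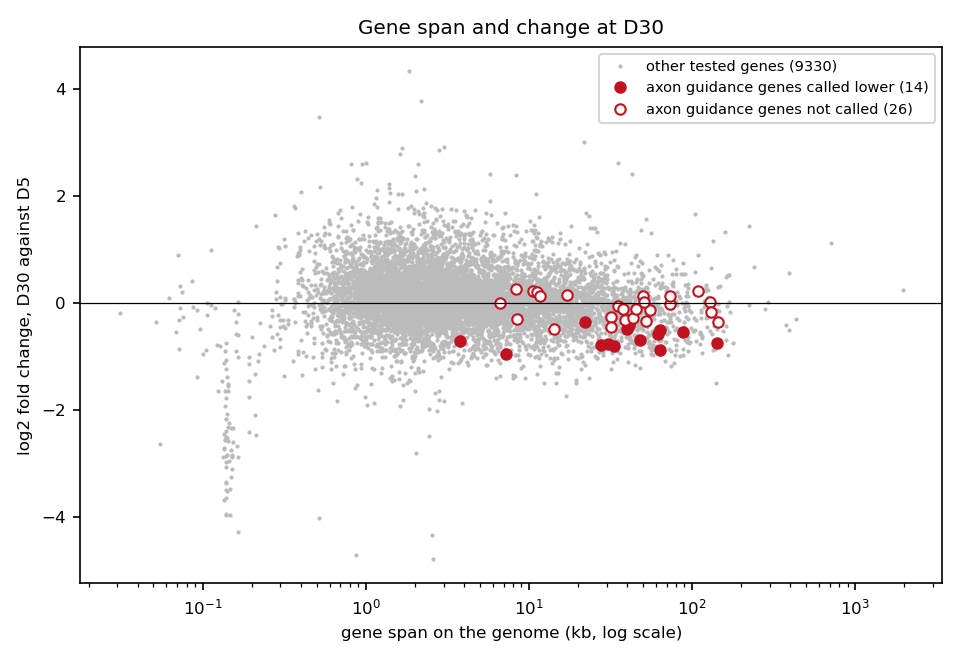
Log2 fold change at D30 against D5 (vertical axis) over the span of each gene on the genome in kb (horizontal log axis) for the tested genes in grey, the 14 guidance genes called lower as filled red points and the other 26 as open points. The 40 guidance genes lie mostly to the right of the bulk of genes, and the filled points occur from the shortest to nearly the longest of them.

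The genes on chromosome 4 had small differences at D30. Eph, Ephrin, PlexA and PlexB lie on the small chromosome 4, and their D30 log2 fold changes ran from 0.12 to 0.25 with a median of 0.18. The 94 tested genes of that chromosome had a median of 0.20 at D30, with 2.13% called lower. At 8 h, the log2 fold change of the 40 had a Spearman rho of 0.60 with their mean level, whereas across the 9370 genes rho was -0.02, again as a description over genes of the same libraries.

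A wider list of guidance and growth cone genes, outside the 40, gave the context. Of its 64 genes 62 were tested. At D30, 21 of the 62, 33.9%, were called lower and 3 higher, beside 8.72% and 8.79% of all features. The median log2 fold change of the list was -0.34. The 4 with the largest non-overlapping decrease were trol, the fly perlecan, at -1.18, tutl, the immunoglobulin protein Turtle, at -1.10, beat-IIIb, of the Beat receptor family, at -0.96, and Ten-m, a teneurin that matches synaptic partners, at -0.93. At D15 all 4 calls were lower, led by bdl at -0.85 and trol at -0.76. Of all features 2.29% were called lower and 1.52% higher there.

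After light fewer genes of the wider list were called. At 3 h 2 of the 62 were higher and 4 lower (3.23% and 6.45%), beside 4.64% and 3.25% of all features. Among them were chic, the fly profilin, at 1.24 and beat-VI at -0.79. The other gene called higher was ed, at 0.62 (edgeR adjusted p = 0.04). Its mean cpm was lower at 3 h than at D5 (167 against 186), with overlapping samples. At 5 h 1 was higher and 4 lower (1.61% and 6.45%), beside 5.07% and 4.53% of all features, with the neuronal Toll family gene Toll-6 at -0.68. At 8 h 3 were higher and 3 lower (4.84% each way), near the 4.6% and 4.48% of all features. They included Src64B, a Src-family kinase, at 1.22, Wnt5 at 0.75, the glypican gene dally at -0.72 and Toll-6 at -0.65. Between 3 h and 8 h 6 were higher and 2 lower (9.68% and 3.23%), beside 6.43% and 9.1% of all features. Among these were the ADAM protease gene kuz at 0.87 and comm3 at -1.56. All 6 calls between D30 and 8 h were lower at D30 (9.68%), with Src64B at -1.56 and Ten-m at -1.26. Of all features 2.9% were called lower and 4.6% higher.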

How the data were processed

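Nuclei of R1-R6 photoreceptors were enriched from heads of 18 pooled fly samples, and nuclear RNA was sequenced after depletion of ribosomal RNA. Per the submitters' processing notes, the authors trimmed reads with Trimmomatic, aligned them to dm6 with HISAT2 and counted them with HTSeq 0.11.1. The deposited values are raw counts per gene, not normalized. From these, 17811 features were read (rows that name no gene were left out), and 9427 of them (52.9%) exceeded 10 counts in each sample and were tested. A fit over all 18 samples with 1 mean per group and 2 factors of unwanted variation, computed with a re-implementation of RUVs from replicate differences, used TMM scaling and edgeR 4.0.16 (quasi-likelihood) with limma 3.58.1 in R 4.3.3. Each contrast was adjusted by Benjamini-Hochberg over the 9427 features and called under 0.05. Group members are 3 samples each, from separate pools of flies. Sample totals of 11.4 to 20.5 M counts limit the precision mainly for low genes such as NetA. RPKM used exon lengths of BDGP6.54, on dm6 coordinates.

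The 40 genes and the marker and pathway lists were chosen with earlier results of these data known. Named with values in every sample are the ligands and receptors of the Slit-Robo, netrin, semaphorin-plexin and ephrin systems and genes called in more than 1 comparison, and of other lists up to 4 called genes with the largest change whose samples do not overlap. On simulated counts the fit with 2 factors was tested for recovery of known changes. The simulated factors were drawn without regard to group, so that test cannot cover factors that separate the groups, as the fitted ones do here. Alternatives were 0, 1 and 3 factors, other filters, DESeq2 1.42.0 (size factors, Wald test), a replicate block, only the 6 samples compared, and leaving out each sample. Sequences of these genes were not used here.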

Additional observations from a re-analysis of the deposited data

Results flagged for a closer look

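The effects of 2 conditions on the same gene, each measured against D5, differed in 15 instances when the difference itself was tested in the fit across all features (edgeR adjusted p under 0.05). Since both effects share the D5 samples, the difference is the direct contrast of the 2 conditions. Between 8 h and 3 h of blue light the log2 difference was 1.81 for dock, 1.66 for Dscam1, 1.26 for ena, 1.22 for Fas2, 1.06 for sli and 0.57 for Nrg, and it was -0.82 for Ephrin and -0.79 for CadN. Nrg turned to the opposite sign without the factors of unwanted variation, and CadN overlapped between the groups.

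Between D30 and 8 h the log2 difference was -2.22 for dock, -1.89 for Dscam1, -1.28 for ena, -0.96 for sli, -0.90 for Fas2, -0.70 for side and -0.53 for Ptp10D. Those of side and Ptp10D had overlapping samples and were lost in most fits that left out 1 sample.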

How the results depend on the processing

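Of 628 recomputed values of called genes, 478 kept direction and call, 148 kept direction but lost the call and 2 reversed: Nrg between 8 h and 3 h was -0.45 without RUVs factors and -0.42 in a fit of only the 6 samples compared. Counts of guidance genes called, in the order 3 h, 5 h, 8 h, D15 and D30 against D5, then 8 h against 3 h and D30 against 8 h, were 4, 2, 6, 1, 14, 8 and 7. The share of all features called in either direction was 7.88%, 9.6%, 9.08%, 3.81%, 17.5%, 15.5% and 7.5%, and it moved with the setting too. Without factors the counts of guidance genes moved to 7 at 5 h, 16 at 8 h (5 higher, 11 lower), 0 at D15, 3 at D30, 15 for 8 h against 3 h and 12 for D30 against 8 h. The share of all features called there was, in that order, 12.2%, 19.1%, 0.159%, 4.4%, 36.7% and 25.8%. With 1 factor the counts were 2 at 3 h, 7 at 5 h, 22 at 8 h (7 higher, 15 lower), 5 at D30 and 15 for D30 against 8 h (4 higher, 11 lower), and with 3 factors 5 at 5 h. Beside them 4.53%, 11.2%, 34.9%, 12.7% and 38.8% of all features were called with 1 factor, and 13.9% with 3. Over 10 cpm in every sample, 36 of the 40 were tested and 8 were called at 3 h (2 higher, 6 lower), 12 at 5 h, 12 at 8 h (8 higher, 4 lower), 0 at D15 and 11 for D30 against 8 h. Of all features passing that filter, 19%, 25.1%, 20.1%, 0.475% and 25.5% were called. With no filter the counts were 1 at 3 h, 5 at 5 h, 14 at 8 h (5 higher, 9 lower), 2 at D15 and 6 at D30. The shares of all features were 5.87%, 7.47%, 13.2%, 2.08% and 3.53%. In fits of only the 6 samples the counts were 11 at 3 h (1 higher, 10 lower), 16 at 5 h, 22 at 8 h (11 higher, 11 lower), 10 at D15 and 18 for 8 h against 3 h. Those fits called 16.5%, 17.2%, 33.1%, 15.8% and 44.9% of all features. At 5 h, DESeq2's size factors gave 4 and its Wald test 9, beside 9.81% and 13.5% of all features. The cause of these moves was not tested.

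Leaving out 1 replicate gave 1 to 5, 1 to 6, 5 to 11, 0 to 2, 8 to 15, 6 to 8 and 5 to 14 calls. In the same order, all features called were 4.39% to 8.47%, 5.28% to 11%, 5.1% to 10.6% and 0.106% to 4.89%. For the last 3 comparisons they were 9.51% to 18.8%, 8.19% to 13.3% and 3.5% to 36.3%. Same-numbered replicates did not pair in any comparison by their deviations (mean r before the correction -0.0565 to 0.169), so the numbers name samples only. A replicate block gave 5, 4, 5, 1, 13, 8 and 5 calls, beside 9.18%, 10.8%, 7.74%, 5.91%, 19.5%, 8.68% and 6.52% of all features.

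Depth limits NetA, with 19 to 127 counts. Lane or flow cell cannot be told apart from condition except for D15 against D5 and 8 h against 3 h.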
